A study of Mus musculus with 27 samples.

Results

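The heat shock protein genes and the DNAJ co-chaperone genes of the mouse were followed through RNA-seq libraries of heart ventricle. Members were chosen by name from the symbols of the counted Ensembl genes: the HSPA, HSPB, HSPD, HSPE and HSPH genes, the cytosolic HSP90 genes and the DNAJA, DNAJB and DNAJC genes, without pseudogenes and without Hspa5, the chaperone of the endoplasmic reticulum. The rule found 70 genes among the 55487 in the table, of which 25 were heat shock protein genes and 45 DNAJ genes. The rule itself uses no expression value, but the members were chosen with earlier results of these data known. The 6 HSPB genes known from muscle are described apart from the rest.

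The study raised or removed MBNL1, which binds RNA and acts on the splicing and stability of transcripts, in the mouse heart. Ventricles labelled as MBNL1 loss of function (KO) were taken at postnatal day 60, 5 of them 7 days and 4 of them 14 days after knockout. Their controls were 4 and 3 ventricles of the same age that carry the same times in the labels. Ventricles with MBNL1 gain of function (Tg) were taken at postnatal day 7 (P7, n = 4), against 3 controls of that age, and 4 further controls were taken at postnatal day 1 (P1). The sources used here do not give how the knockout was made and timed, what the controls received, which part of the gene was deleted, the promoter of the transgene, the strain, the sex of the animals or any pooling of animals. Nor is it stated whether each library is a separate animal, and the p-values below therefore describe spread between libraries that could be technical replicates.

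Heat shock proteins hold unfolded proteins in a state that can be refolded. Small HSPB proteins bind clients without using ATP, HSP70 proteins bind and release them in an ATP cycle that DNAJ proteins start and exchange factors end, and HSP90 proteins act on nearly folded clients such as kinases and receptors. In heart muscle the small HSPB proteins are abundant and lie at the sarcomere, and inside mitochondria HSPA9, HSPD1 and HSPE1 fold imported proteins. Many of these genes are switched on by heat shock factor 1 through repeats of GAA and TTC in their promoters.

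The promoters of 4 members are shown because Hspa1a, Hspa1b and Hspb1 had the largest rises at 7 days among the members named by rule in KO-labelled ventricles and because Hspe1, which fell there, holds an unbroken run of repeats. Each is the 250 bases before the start of the gene, 5′ to 3′, from RefSeq on GRCm38.p6. Capitals mark GAANNTTC and TTCNNGAA, the pairs of heat shock repeats facing each other.
Hspa1a, chr17:34972157-34972406, minus strand: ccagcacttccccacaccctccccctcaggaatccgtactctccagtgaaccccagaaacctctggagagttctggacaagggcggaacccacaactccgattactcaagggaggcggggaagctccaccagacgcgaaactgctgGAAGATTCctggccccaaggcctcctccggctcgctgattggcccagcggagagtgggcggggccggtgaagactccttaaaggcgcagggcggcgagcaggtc
Hspa1b, chr17:34959239-34959488, minus strand: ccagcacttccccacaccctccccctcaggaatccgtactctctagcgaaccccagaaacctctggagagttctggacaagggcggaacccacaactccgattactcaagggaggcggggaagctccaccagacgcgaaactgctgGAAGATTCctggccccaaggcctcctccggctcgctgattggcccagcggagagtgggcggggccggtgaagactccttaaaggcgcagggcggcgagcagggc
Hspb1, chr5:135887669-135887918, plus strand: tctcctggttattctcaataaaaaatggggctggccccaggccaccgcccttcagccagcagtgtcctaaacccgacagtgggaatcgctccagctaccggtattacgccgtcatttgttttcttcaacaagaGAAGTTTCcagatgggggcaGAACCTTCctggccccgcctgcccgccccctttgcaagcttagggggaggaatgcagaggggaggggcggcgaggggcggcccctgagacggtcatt
Hspe1, chr1:55087898-55088147, plus strand: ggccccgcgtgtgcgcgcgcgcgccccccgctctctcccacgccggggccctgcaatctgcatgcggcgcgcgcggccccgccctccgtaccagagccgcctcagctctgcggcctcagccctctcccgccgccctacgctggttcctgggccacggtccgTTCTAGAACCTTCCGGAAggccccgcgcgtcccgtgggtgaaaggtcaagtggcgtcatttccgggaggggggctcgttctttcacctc

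The windows of Hspa1a and Hspa1b differed at 3 of 250 bases, and the longest open reading frames of their transcripts at 8 of 1926 aligned bases (99.6% identity). Reads of these copies may have been split between them in the counting, so each of their values is uncertain. Hspa1a also shares 564 exon bases with Gm20481 on the opposite strand, and without a stated strand setting their reads cannot be told apart there. RefSeq windows from 250 bases before to 50 bases after the start were found for 56 of the 70 members, and searched on both strands. GAANNTTC occurred in 14 of the 56, or 25%, against 9.04% of the 27025 genes with a window, and TTCNNGAA in 6, or 10.7%, against 9.60% of genes. A run of 3 repeats, in which GAANNTTC goes on with NNGAA or TTCNNGAA with NNTTC, occurred in 4 of the 56 (7.14%), Dnajb6, Hspd1, Hspe1 and Hsph1, against 0.662% of genes. Hspd1 and Hspe1 lie head to head and their windows share the same stretch. A run of 3 repeats also counts as a match of each pair inside it. These letters describe the windows, and binding of a factor was not measured.

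Total counts were 21929347 to 25675115 per library. Mbnl1 was at 2934 to 4079 CPM (counts scaled to library size) in Tg ventricles, against 96.9 to 105 CPM in P7 controls. In KO-labelled libraries it was at 219, 102, 167, 115 and 168 CPM at 7 days, against 146 to 153 CPM in controls, and at 115 to 137 CPM at 14 days, against 151 to 170.1 CPM in controls. Reads over the whole gene do not check a deletion of unknown extent. All 9 KO-labelled libraries held reads of Esr1, the estrogen receptor gene, at 234, 1893, 650.2, 1653 and 195 CPM at 7 days and 1651 to 1955 CPM at 14 days, against at most 1.498 CPM in the 18 other libraries, so the loss of MBNL1 and whatever brought this transcript cannot be told apart. The 7-day KO-labelled libraries 1 and 5, lowest in Esr1 in their group, stood apart in many members, and counts are therefore also given without them. The summed level of 8 cardiomyocyte markers was 21906 to 46959 CPM in KO-labelled libraries at 7 days, lowest in libraries 1 and 5, against 70049 to 75952 CPM in controls, and 45842 to 54330 CPM at 14 days, against 71912 to 78543 CPM. Sums of 7 fibroblast markers were 4431 to 11458 CPM at 7 days, against 1236 to 1491 CPM, and of 6 macrophage markers 803 to 1141 CPM, against 298 to 331 CPM. At 14 days the fibroblast sum was 5020.4 to 6409.9 CPM in KO-labelled libraries, against 1388 to 1469.6 CPM in controls, and the macrophage sum 492 to 698 CPM, against 242 to 368 CPM, with none of these markers at 0 at either time. In such whole tissue, fewer cells of a type and less RNA per cell cannot be told apart. The part of cell makeup in the results below was not tested.

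Per length of transcript, the members' summed level in the 7 ventricles of day-60 controls was led by small muscle genes. Hspb7, the cardiovascular heat shock gene, reached 2003 ± 207 TPM (level per transcript length, scaled to an equal sum in every library; SD, n = 7) and made up 27.7% of all member TPM. Hspb6 (HSP20), a target of protein kinase A, followed at 1169 ± 64.6 TPM and Hsp90ab1, the constitutive HSP90, at 849 ± 26.9 TPM. Hspa8, the constitutive HSP70, and Hspb8, a partner of BAG3 in clearing damaged sarcomere proteins, were next at 563 ± 44.3 and 556 ± 49.97 TPM, a gap smaller than their spread. Hspa9 led the mitochondrial genes at 277 ± 6.01 TPM. The inducible Hspa1a and Hspa1b stayed at 0.769 to 2.29 and 1.36 to 3.20 CPM, and 9 members never reached 50 counts in any library.

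Differences were tested with edgeR's quasi-likelihood test with Benjamini-Hochberg adjustment over all genes tested, and an adjusted p under 0.05 made a call. At 7 days 62 members had enough counts to be tested, of which 15 rose in KO-labelled ventricles, against a background of 26.4% of all genes called higher, and 20 fell, against 24.3% called lower (50.7% called in all). At 14 days 14 of 62 rose, against a background of 21.8%, and 22 fell, against 22.4% (44.2% in all). The share of members that rose was near or under that of all genes, while 18 of 62 fell at both times, where 18.3% of all genes did. Scaling by total counts in place of TMM moved the median log2 fold change of all genes to 0.45 at 7 days and 0.39 at 14 days, and turned the members' split to 33 higher and 9 lower at 7 days and 30 higher and 10 lower at 14 days. On that scale 8065 of all 15167 genes were called higher and 1588 lower at 7 days. At 14 days 7288 of 14976 genes were called higher and 1610 lower. The members' share called higher was thus close to that of all genes. Mitochondrially encoded genes took 14.7% to 18.3% of counts in KO-labelled libraries at 7 days, against 26.0% to 29.2% in controls, and 17.4% to 21.6% at 14 days, against 26.3% to 29.6%. Fold changes below are on the TMM scale unless another is named.

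**Figure D1:**
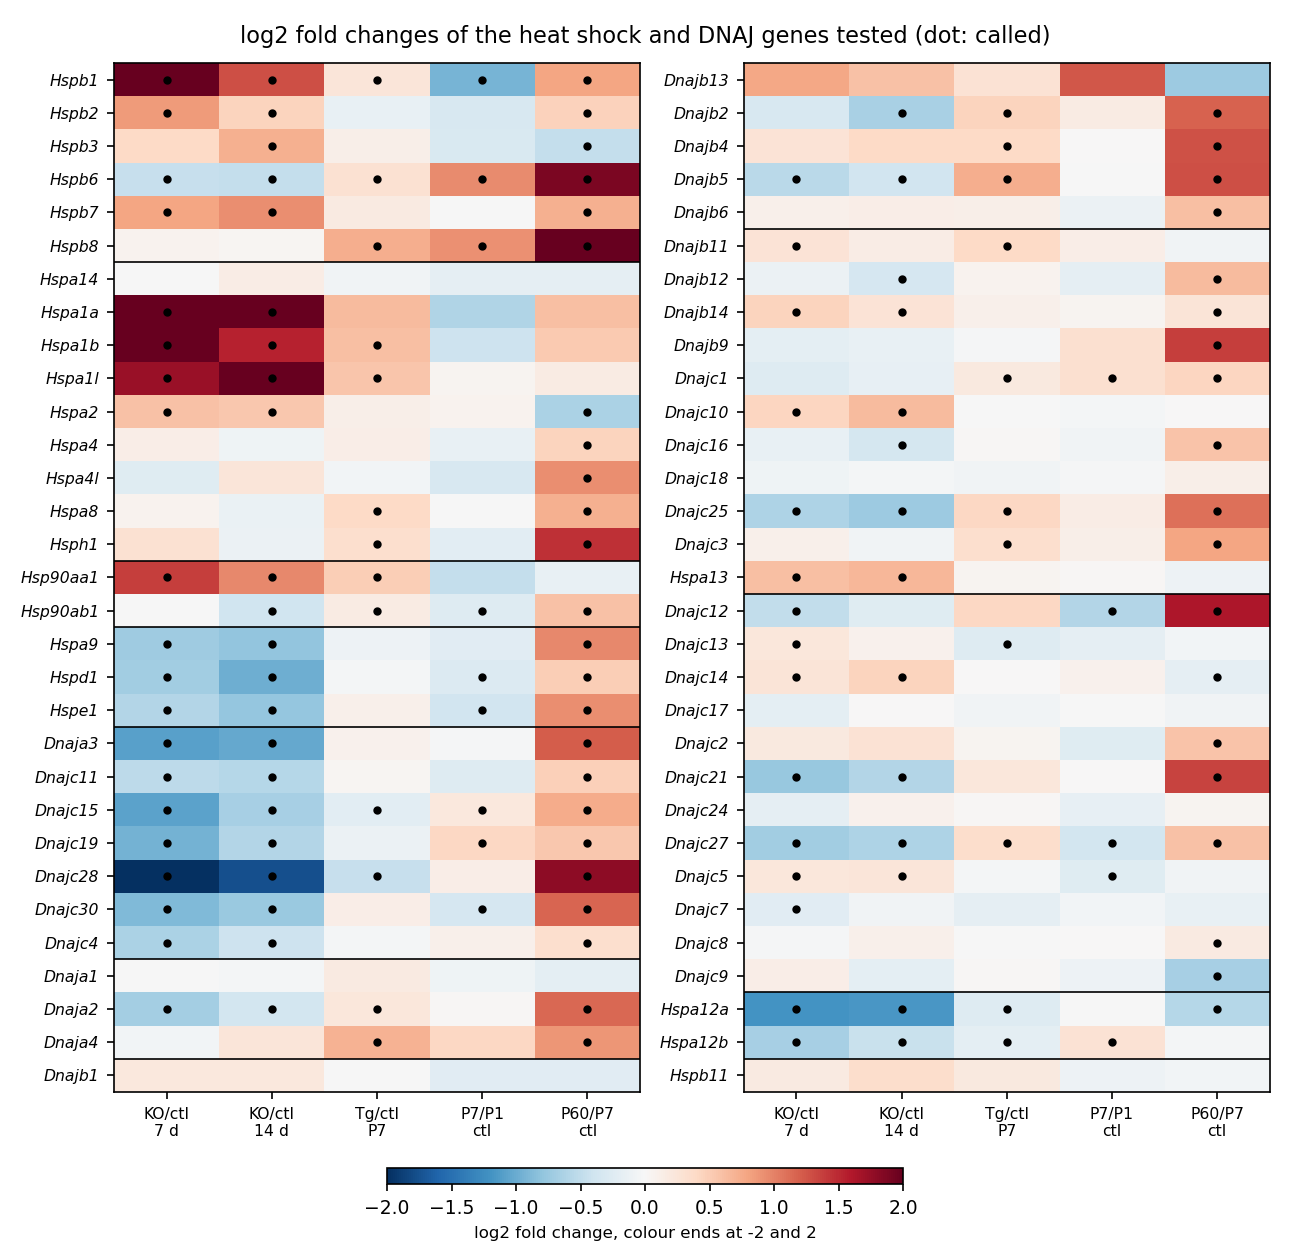
Log2 fold changes of 62 members, in rows grouped by role and divided by lines, with 1 column per comparison (first group over second); colours end at -2 and 2 and a dot marks an edgeR adjusted p under 0.05. The 10 mitochondrial genes, Hspa9 to Dnajc4 in the left panel, are blue with dots in both KO columns and red with dots in the column for P60 over P7. The day-60 controls serve in all of these columns, and nothing is drawn from the opposite signs.

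Among the 6 small muscle HSPB genes, 3 rose and 1 fell in KO-labelled ventricles at 7 days, and 4 rose and 1 fell at 14 days. Of all genes, 26.4% and 21.8% were called higher at these times. Total count scaling gave 5 of the 6 higher and none lower at both times, where 8065 of 15167 and 7288 of 14976 genes were called higher. Their summed level per length was 12402 ± 4168 TPM in KO-labelled ventricles at 7 days, against 4343 ± 206 TPM in controls (SD, n = 5 and 4), and 9241 ± 987 TPM at 14 days, against 4187 ± 213 TPM (SD, n = 4 and 3). The sum of the other members was also higher, at 4193 ± 632 TPM, against 2942 ± 105 TPM, at 7 days. At 14 days it was 3494 ± 78.9 TPM, against 2946 ± 81.9 TPM in controls (SD, same libraries). These sums carry no TMM scaling and cannot be set against the TMM fold changes. At 7 days Hspb6 was at 1347 TPM in KO-labelled ventricles, against 1179 TPM in controls, and Hspb8 at 876 TPM, against 530 TPM. On the TMM scale Hspb6 was called lower and Hspb8 was not called. Hspb1 (HSP25 in the mouse), which binds unfolded proteins and actin filaments, was at 3119.9, 533, 746, 714 and 3120.2 CPM in KO-labelled ventricles at 7 days, against 274, 269, 245 and 273 CPM in controls. Every KO-labelled library stood above every control, and libraries 1 and 5 were far above the other 3. The log2 fold change was 2.63 ± 0.57 (SE, edgeR adjusted p = 0.0031), and without libraries 1 and 5 it was 1.33 (edgeR adjusted p = 1.2e-05). At 14 days Hspb1 was at 1094, 583, 635 and 581 CPM in KO-labelled ventricles, against 320.4, 304 and 261 CPM in controls, with a log2 fold change of 1.28 ± 0.22 (SE, edgeR adjusted p = 0.00083). The groups again did not overlap, and KO-labelled library 6 was the highest.

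Hspb7, which binds filamin C at the sarcomere, was the most abundant member and rose at both times. It was at 6919, 4311, 6363, 5339 and 6768 CPM in KO-labelled ventricles at 7 days, against 3376, 2911, 3640.2 and 3698 CPM in controls, a log2 fold change of 0.79 ± 0.16 (SE, edgeR adjusted p = 0.0022). By 14 days the level was 7455, 5599, 5474 and 5796 CPM, against 3386, 3411 and 2676 CPM, a log2 fold change of 0.94 ± 0.13 (SE, edgeR adjusted p = 0.00031). No KO-labelled library reached down to a control at either time. Hspb2, a binding partner of myotonic dystrophy protein kinase, was at 98.4, 43.9, 65.6, 47.1 and 86.7 CPM at 7 days, against 42.5, 41.6, 31.7 and 35.1 CPM, with a log2 fold change of 0.85 ± 0.24 (SE, edgeR adjusted p = 0.012). The groups did not overlap and libraries 1 and 5 were again the highest, but Hspb2 shares 252 exon bases on the opposite strand with Cryab, from which its reads cannot be told apart without a stated strand setting. Hspb3, the partner of HSPB2 in a muscle complex, was not called at 7 days (log2 fold change 0.40 ± 0.19 SE, edgeR adjusted p = 0.10) and rose at 14 days, at 12.9, 12.5, 9.48 and 12.8 CPM in KO-labelled ventricles, against 7.32, 8.09 and 6.21 CPM in controls (log2 fold change 0.72 ± 0.15 SE, edgeR adjusted p = 0.0035).

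Hspb6 ran the other way. It was at 1383, 1063, 898, 1089 and 1339 CPM in KO-labelled ventricles at 7 days, against 1630.3, 1501, 1413 and 1805 CPM in controls, a log2 fold change of -0.47 ± 0.14 (SE, edgeR adjusted p = 0.020), with no overlap. The call at 7 days was lost without control library 1 (log2 fold change -0.44) or control library 4 (-0.38), and under total count scaling the fold changes were -0.04 at 7 days and -0.10 at 14 days, neither called. At 14 days it was at 1441, 1116, 1113 and 1014 CPM, against 1713, 1711 and 1432 CPM, a log2 fold change of -0.48 ± 0.12 (SE, edgeR adjusted p = 0.011), with KO-labelled library 6 above 1 control. Hspb8 was at 652, 602, 557, 607 and 756 CPM in KO-labelled ventricles, against 583, 610.1, 598 and 619.8 CPM in controls at 7 days, and was not called at either time.

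**Figure D2:**
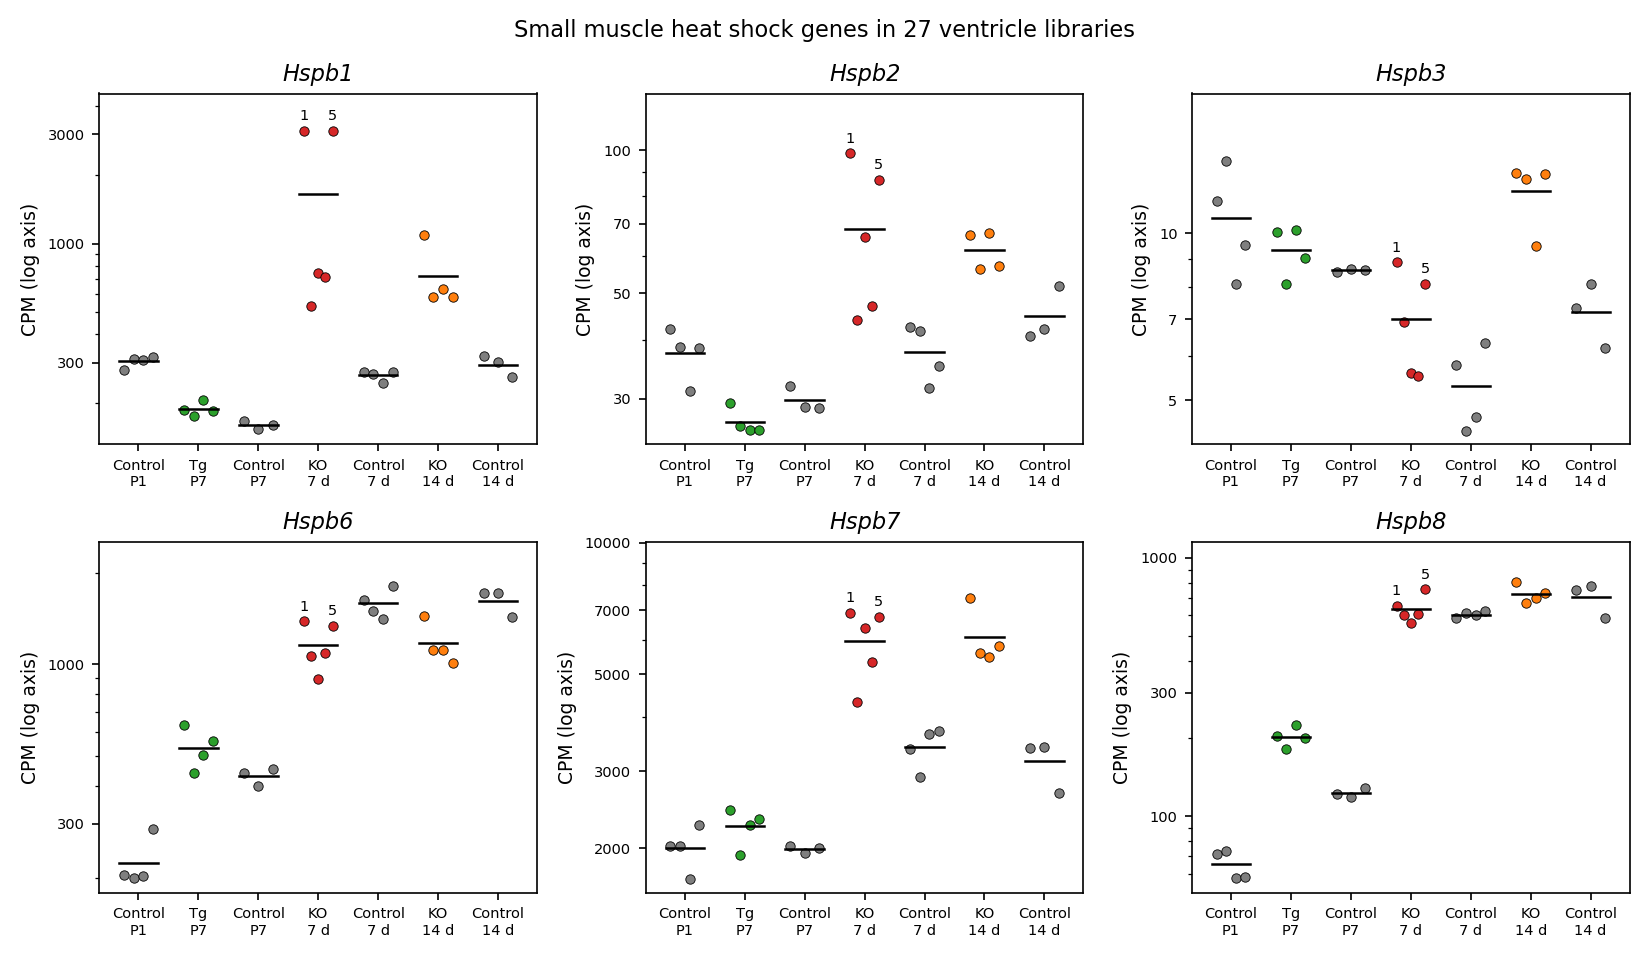
CPM after TMM scaling (log axis) of the 6 small muscle HSPB genes in each library, with groups from P1 to the day-60 groups at 7 and 14 days; points are libraries, lines are group means, and KO-labelled libraries 1 and 5 at 7 days carry their numbers. Hspb1 and Hspb7 lie above their controls in every KO-labelled library, Hspb6 lies lower in most of them, and Hspb8 is lowest at P1 and highest at day 60.

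Of the 9 HSP70 and HSP110 genes, 4 rose and none fell at both 7 and 14 days, where 26.4% and 21.8% of all genes were called higher. Under total count scaling 7 were called higher at each time, where 8065 of 15167 and 7288 of 14976 genes were. Hspa1a, an inducible HSP70, was at 50.9, 5.18, 3.05, 5.86 and 39.8 CPM in KO-labelled ventricles at 7 days, against 0.912, 2.29, 1.28 and 0.769 CPM in controls. All 5 KO-labelled libraries were above all controls, and libraries 1 and 5 were several-fold above the other 3. The log2 fold change was 3.98 ± 0.96 (SE, edgeR adjusted p = 0.0059), and without libraries 1 and 5 it was 1.83 (edgeR adjusted p = 0.0016). Its near copy Hspa1b was at 61.3, 5.95, 4.18, 8.604 and 50.8 CPM, against 2.74, 2.79, 2.55 and 1.36 CPM, a log2 fold change of 3.46 ± 0.88 (SE, edgeR adjusted p = 0.0076), or 1.40 without these libraries. With limma-voom neither gene was called at 7 days, at 3.18 for Hspa1a and 2.65 for Hspa1b. At 14 days Hspa1a was at 11.4, 6.58, 3.42 and 7.68 CPM in KO-labelled ventricles, against 0.923, 1.82 and 1.19 CPM in controls, a log2 fold change of 2.46 ± 0.41 (SE, edgeR adjusted p = 0.00082). Hspa1b then had a log2 fold change of 1.53 ± 0.38 (SE, edgeR adjusted p = 0.0082), and the libraries of either gene did not overlap with controls.

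Hspa1l, an HSP70 best known from testis, was named after its values were seen because its mean is low. It was at 5.84, 5.99, 3.05, 5.53 and 5.46 CPM in KO-labelled ventricles at 7 days, against 1.58, 1.95, 1.22 and 1.42 CPM in controls, a log2 fold change of 1.73 ± 0.24 (SE, edgeR adjusted p = 0.00020), with library 3 lowest and the other 4 close together. At 14 days its log2 fold change was 2.37 ± 0.29 (SE, edgeR adjusted p = 0.00011). It shares 1778 exon bases with Gm10501 on the opposite strand, so its reads are uncertain. Hspa2, another HSP70 known from testis, was at 11.04, 12.99, 11.7, 11.8 and 9.93 CPM at 7 days, against 7.66, 8.31, 6.55 and 7.81 CPM, a log2 fold change of 0.59 ± 0.12 (SE, edgeR adjusted p = 0.0020). At 14 days it had 0.54 ± 0.16 (SE, edgeR adjusted p = 0.018), a call that was lost without control library 5 (0.44) or 6 (0.46).

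The abundant Hspa8 was at 1799, 1145, 1232, 1179.8 and 1897 CPM in KO-labelled ventricles at 7 days, against 1417, 1413, 1319 and 1377 CPM in controls. Libraries 1 and 5 lay above all controls and the other 3 below them, and the gene was not called at 7 or at 14 days. Without these libraries it was called lower at 7 days (-0.22, edgeR adjusted p = 0.035), and under total count scaling it was called higher there (0.49). The exchange factor Hsph1 (HSP110) was at 85.1, 28.4, 26.5, 34.8 and 51.0 CPM, against 33.2, 34.8, 32.5 and 45.2 CPM, with libraries 1 and 5 above all controls and library 4 among them, and was not called at either time. Its relatives Hspa4 and Hspa4l were not called, nor was Hspa14, which binds ribosomes. Under total count scaling Hspa4 (0.56 at 7 and 0.29 at 14 days) and Hspa14 (0.41 and 0.51) were called higher at both times. Hspa4l was called higher at 14 days on that scale (0.62).

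The 2 cytosolic HSP90 genes parted. Hsp90aa1, the stress-inducible form, was at 384, 121, 154, 146 and 329 CPM in KO-labelled ventricles at 7 days, against 82.5, 83.0, 87.0 and 94.96 CPM in controls, a log2 fold change of 1.38 ± 0.34 (SE, edgeR adjusted p = 0.0062), or 0.69 without libraries 1 and 5. At 14 days it was at 242, 221, 146 and 191 CPM, against 123, 111 and 73.8 CPM, a log2 fold change of 0.96 ± 0.20 (SE, edgeR adjusted p = 0.0031). Neither time had an overlap of the groups. Hsp90ab1, the constitutive form, was at 2037, 1162, 1128, 1175 and 1947 CPM at 7 days, against 1597, 1483, 1391 and 1479 CPM, with libraries 1 and 5 above all controls and the other 3 below, and was not called. Without these libraries it was called lower (-0.36, edgeR adjusted p = 0.0033). At 14 days it fell to 1280.0, 1125, 1186 and 1165 CPM in KO-labelled ventricles, against 1631, 1602 and 1419.9 CPM in controls (log2 fold change -0.39 ± 0.09 (SE, edgeR adjusted p = 0.0040), or -0.02 and not called under total count scaling).

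**Figure D3:**
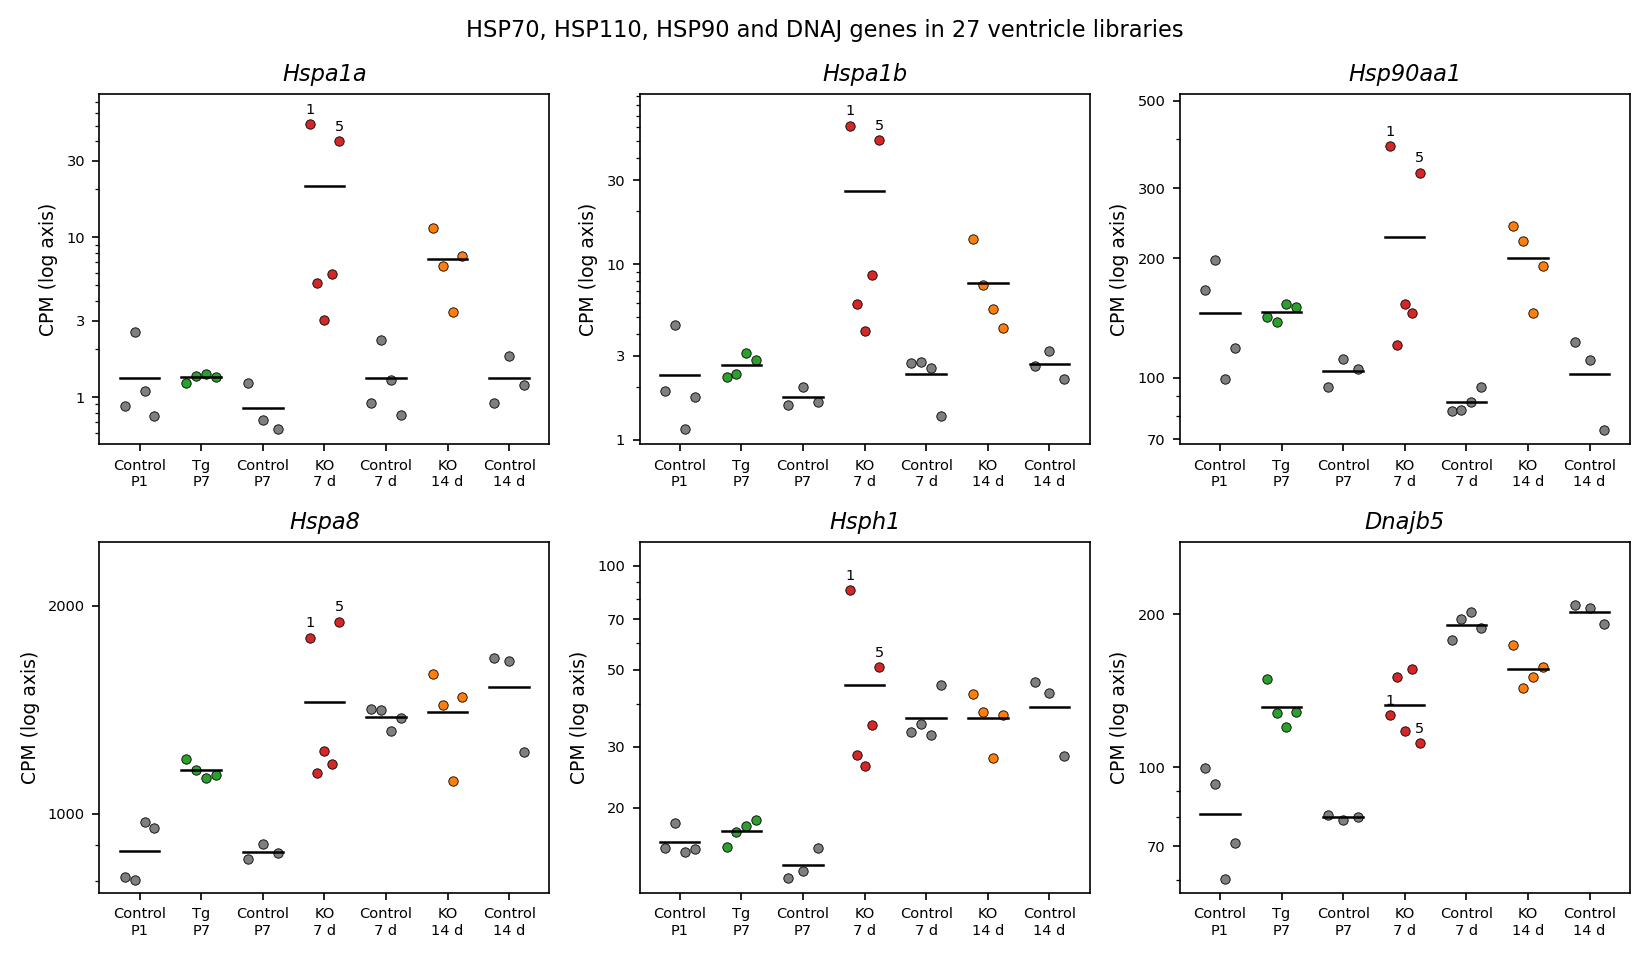
CPM after TMM scaling (log axis) of 6 cytosolic chaperone genes in each library, with groups, points and lines as in the plot of the small muscle genes. Hspa1a, Hspa1b and Hsp90aa1 are above their controls in every KO-labelled library and highest in libraries 1 and 5, Hspa8 and Hsph1 exceed their controls in these libraries but not in the other 3 at 7 days, and Dnajb5 is below its controls in KO-labelled libraries and above them in Tg libraries.

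Immediate early genes, which respond within minutes to stress and handling, moved with these groups. At 7 days 14 of 19 tested were called higher in KO-labelled ventricles and 2 lower, with a summed level of 1083 to 1706 CPM, against 767 to 895 CPM in controls. At 14 days 11 of 19 were called higher, at 1087 to 1328 CPM, against 708 to 997 CPM. Libraries 1 and 5 had the highest sums at 7 days and library 6 at 14 days. Whether they and the inducible HSP genes moved for a shared reason was not tested.

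All 10 members that work in mitochondria fell in KO-labelled ventricles at 7 days and again at 14 days, where 24.3% and 22.4% of all genes tested were called lower. Their median log2 fold change was -0.80 at 7 days, against 0.03 over all genes, and -0.75 at 14 days, against 0.01. Hspa9 (mortalin), the HSP70 that pulls proteins into the matrix, was at 512, 402, 421, 411 and 434 CPM in KO-labelled ventricles at 7 days, against 751, 669, 662 and 749 CPM in controls, a log2 fold change of -0.71 ± 0.10 (SE, edgeR adjusted p = 0.00029). At 14 days it had -0.79 ± 0.08 (SE, edgeR adjusted p = 3.4e-05), and the groups did not overlap at either time.

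Hspd1 (HSP60) and Hspe1 (HSP10) form the folding chamber of the matrix and share a promoter region. Hspd1 was at 140.0, 129, 115 and 127 CPM in KO-labelled ventricles at 14 days, against 269.6, 249 and 232 CPM in controls, a log2 fold change of -0.98 ± 0.09 (SE, edgeR adjusted p = 1.8e-05), and at 7 days -0.69 ± 0.12 (SE, edgeR adjusted p = 0.00093). Hspe1 was at 32.7, 26.7, 27.4 and 28.6 CPM at 14 days, against 52.7, 47.6 and 46.7 CPM, a log2 fold change of -0.77 ± 0.10 (SE, edgeR adjusted p = 0.00012), and at 7 days -0.58 ± 0.12 (SE, edgeR adjusted p = 0.0021). For both, every KO-labelled library was below every control at both times. They share 112 exon bases on opposite strands, and at 7 days total count scaling left them uncalled, at -0.27 for Hspd1 and -0.16 for Hspe1.

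The 7 mitochondrial DNAJ genes fell too. Dnaja3 (TID1), the partner of HSPA9 in the matrix, was at 86.5, 96.6, 95.1, 105 and 83.2 CPM in KO-labelled ventricles at 7 days, against 207, 192, 183 and 208 CPM in controls, a log2 fold change of -1.09 ± 0.09 (SE, edgeR adjusted p = 1.3e-05), and -1.02 ± 0.08 (SE, edgeR adjusted p = 6.5e-06) at 14 days. Dnajc28, of unclear function, fell furthest, to 4.83, 15.8, 10.4, 15.7 and 2.77 CPM in KO-labelled ventricles, against 52.4, 41.1, 43.9 and 45.1 CPM in controls, a log2 fold change of -2.21 ± 0.42 (SE, edgeR adjusted p = 0.0015). Libraries 1 and 5 were its lowest, and without them the value was -1.70. At 14 days Dnajc28 was at 12.4, 14.3, 15.0 and 14.5 CPM, against 51.7, 48.2 and 41.7 CPM, a log2 fold change of -1.76 ± 0.11 (SE, edgeR adjusted p = 1.4e-06).

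Dnajc19 and Dnajc15 belong to the motor at the inner membrane import channel, and loss of DNAJC19 causes a cardiomyopathy in humans. Dnajc19 was at 15.2, 22.0, 20.96, 18.6 and 14.8 CPM in KO-labelled ventricles at 7 days, against 35.3, 36.5, 29.9 and 37.9 CPM in controls, a log2 fold change of -0.94 ± 0.14 (SE, edgeR adjusted p = 0.00028), and -0.58 ± 0.10 (SE, edgeR adjusted p = 0.0012) at 14 days. Dnajc15 was at 25.4, 37.9, 41.5, 35.1 and 25.1 CPM at 7 days, against 73.2, 66.6, 63.8 and 72.2 CPM, a log2 fold change of -1.07 ± 0.15 (SE, edgeR adjusted p = 0.00026), and -0.67 ± 0.08 (SE, edgeR adjusted p = 0.00011) at 14 days. Both were lowest in libraries 1 and 5, and no KO-labelled library reached a control. The remaining 3 were Dnajc30 (-0.89 at 7 and -0.74 at 14 days), a partner of the ATP synthase, Dnajc11 (-0.52 and -0.56), of the cristae junctions, and Dnajc4 (-0.63 and -0.41).

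**Figure D4:**
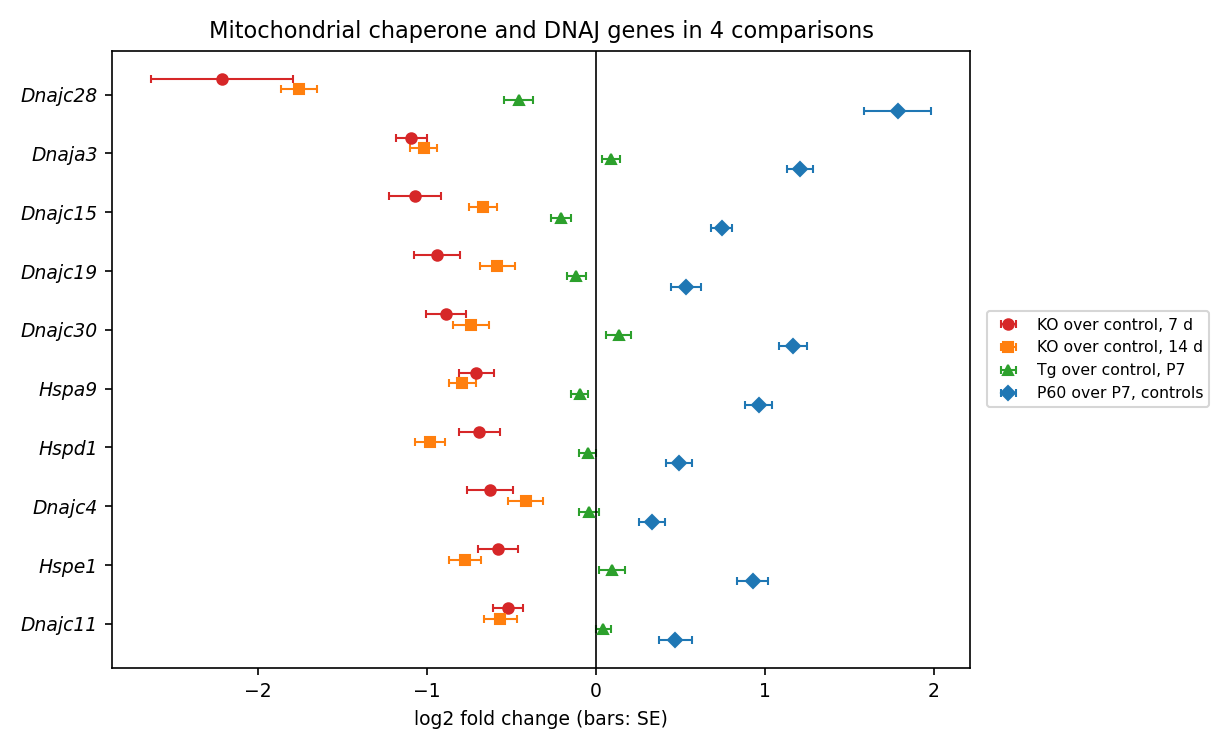
Log2 fold changes (horizontal axis, bars are SE) of the 10 mitochondrial chaperone and DNAJ genes in 4 comparisons, sorted by the value at 7 days after knockout. Values for KO over control at 7 and 14 days lie left of 0 for all 10 genes, those for P60 over P7 controls right of 0, and those for Tg over control passed the test for Dnajc28 and Dnajc15. The KO and P60 comparisons share the day-60 controls, and nothing is drawn from their opposite signs.

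With the scaling by total counts, 6 of the 10 were still called lower at 7 days and 7 at 14 days, none higher, and without libraries 1 and 5 all 10 were called at 7 days. Partners of these chaperones outside the members were measured as well. Of 12 mitochondrial exchange factors, chaperones and proteases 8 were called lower at 7 days and 9 at 14 days, none higher. They included Clpp, a matrix protease (-0.89 and -0.77), Clpb, a disaggregase (-0.78 and -0.61), and Oma1, an inner membrane protease (-0.70 and -0.74). Mitochondrially encoded counts and cardiomyocyte markers were lower in the same libraries, as given above.

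In the cytosol and nucleus, 1 of 3 DNAJA and 1 of 6 tested DNAJB genes fell at 7 days and none rose. Among all genes 24.3% were called lower and 26.4% higher at that time. Dnaja2, a general HSP70 partner, was at 152, 172, 147, 166 and 139 CPM in KO-labelled ventricles, against 247, 249, 241 and 246 CPM in controls, a log2 fold change of -0.67 ± 0.09 (SE, edgeR adjusted p = 0.00015), and -0.37 ± 0.11 (SE, edgeR adjusted p = 0.024) at 14 days. The call at 14 days was lost without KO-labelled library 9 (-0.30), control library 5 (-0.31) or 6 (-0.36), and under total count scaling, where the value was 0.0054. Dnajb5, which in mouse heart binds the histone deacetylase HDAC4, was at 127, 150.3, 118, 156 and 112 CPM at 7 days, against 178, 196, 202 and 188 CPM, a log2 fold change of -0.53 ± 0.12 (SE, edgeR adjusted p = 0.0032). After 14 days Dnajb5 was at 174, 143, 151 and 158 CPM, against 208, 205 and 192 CPM, a log2 fold change of -0.38 ± 0.09 (SE, edgeR adjusted p = 0.0060). Neither Dnajb5 call remained under total count scaling (-0.11 at 7 days and -0.00 at 14 days). Dnajb2, which carries ubiquitin-binding motifs, was called lower at 14 days (-0.65 ± 0.10 SE, edgeR adjusted p = 0.00066) and ranged widely at 7 days, from 64.4 to 119 CPM in KO-labelled ventricles, against 102 to 114 CPM in controls. It was not called at 7 days with all libraries and was called lower without libraries 1 and 5 (-0.54, edgeR adjusted p = 0.0011).

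Dnajb1, the classical HSP40 that is induced with HSP70, did not follow Hspa1a past the test. It was at 26.3, 21.5, 28.6, 23.6 and 27.3 CPM in KO-labelled ventricles at 7 days, against 18.01, 23.97, 23.3 and 22.1 CPM in controls (log2 fold change 0.21 ± 0.12 SE, edgeR adjusted p = 0.16), and had 0.21 ± 0.11 (SE, edgeR adjusted p = 0.16) at 14 days. Under total count scaling it was called at both times, at 0.63 and 0.59. Dnaja1, Dnaja4, Dnajb4 and Dnajb6, whose mutation causes a limb-girdle muscular dystrophy in humans, were not called at either time. Under total count scaling Dnaja1 (0.41 at 7 and 0.35 at 14 days), Dnajb4 (0.70 and 0.78) and Dnajb6 (0.53 and 0.50) were called higher at both times and Dnaja4 at 14 days (0.61), and Dnajb4 was also called at 7 days without libraries 1 and 5 (0.32, edgeR adjusted p = 0.047).

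In the endoplasmic reticulum and secretory pathway, 4 of 11 tested members rose at 7 days and 1 fell, and at 14 days 3 rose and 3 fell. Of all genes 26.4% were called higher and 24.3% lower at 7 days, and 21.8% and 22.4% at 14 days. Hspa13, a microsomal HSP70, was at 26.3, 23.1, 30.1, 25.7 and 27.9 CPM in KO-labelled ventricles at 7 days, against 17.0, 16.4, 18.6 and 17.4 CPM in controls, a log2 fold change of 0.61 ± 0.10 (SE, edgeR adjusted p = 0.00049), and 0.67 ± 0.16 (SE, edgeR adjusted p = 0.0064) at 14 days. Dnajc10 (ERdj5), a disulfide reductase, had 0.44 ± 0.13 (SE, edgeR adjusted p = 0.019) and 0.64 ± 0.13 (SE, edgeR adjusted p = 0.0026). Dnajc25 fell to 13.7, 14.6, 15.8, 13.2 and 12.9 CPM in KO-labelled ventricles, against 23.8, 22.4, 18.4 and 21.5 CPM in controls (log2 fold change -0.62 ± 0.10 SE, edgeR adjusted p = 0.00063), and had -0.72 ± 0.12 (SE, edgeR adjusted p = 0.00063) at 14 days. Under total count scaling Dnajc25 was not called at 7 days (-0.20). Dnajb9 (ERdj4) and Dnajc3 (p58IPK), targets of the unfolded protein response, were not called at either time. At 7 days Dnajb9 was called lower without libraries 1 and 5 (-0.24, edgeR adjusted p = 0.027), and Dnajc3 was called higher under total count scaling (0.52).

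Both members of the divergent HSPA12 family fell. Hspa12a was at 7.64, 16.0, 14.3, 15.9 and 9.93 CPM in KO-labelled ventricles at 7 days, against 30.7, 25.5, 28.2 and 32.2 CPM in controls, a log2 fold change of -1.20 ± 0.21 (SE, edgeR adjusted p = 0.00079). After 14 days Hspa12a was at 14.6, 17.4, 14.8 and 19.6 CPM, against 34.0, 39.4 and 37.2 CPM, a log2 fold change of -1.16 ± 0.12 (SE, edgeR adjusted p = 4.0e-05), again with no overlap. Hspa12b, known from endothelium, had -0.66 ± 0.10 (SE, edgeR adjusted p = 0.00027) and -0.44 ± 0.12 (SE, edgeR adjusted p = 0.015), and under total count scaling neither was called, at -0.24 and -0.07. The call at 14 days was also lost without control library 6 (-0.43). Of 5 endothelial markers, none of them at 0, 3 were called lower at 7 days and 2 at 14 days, with summed levels of 409.7 to 592 CPM in KO-labelled ventricles at 7 days, against 645 to 688 CPM in controls, and 533 to 704 CPM at 14 days, against 742 to 762 CPM. Their part in the fall of Hspa12b was not tested.

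Among the other DNAJC genes, 3 of 12 tested rose and 4 fell at 7 days, and 2 rose and 2 fell at 14 days. The shares of all genes were 26.4% higher and 24.3% lower at 7 days, and 21.8% and 22.4% at 14 days. Dnajc21, which acts in ribosome maturation, had -0.76 ± 0.11 (SE, edgeR adjusted p = 0.00022) and -0.59 ± 0.13 (SE, edgeR adjusted p = 0.0041), and Dnajc27, a Rab-like GTPase with a J domain, -0.69 ± 0.13 (SE, edgeR adjusted p = 0.0011) and -0.62 ± 0.12 (SE, edgeR adjusted p = 0.0018). Under total count scaling Dnajc27 was uncalled at both times (-0.27 and -0.25) and Dnajc21 at 14 days (-0.22). Dnajc14 rose, to 54.7, 53.5, 54.0 and 54.5 CPM in KO-labelled ventricles at 14 days, against 40.5, 37.4 and 40.4 CPM in controls (log2 fold change 0.45 ± 0.08 SE, edgeR adjusted p = 0.00093), although it shares 1252 exon bases with Tmem198b and Ormdl2.

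The response at 14 days was then set against that at 7 days in one fit of the 16 day-60 libraries. No member differed past the threshold, among 62 tested, where 0.0% of all genes were called. Across all genes edgeR's smallest adjusted p was 0.0693, 1662 genes had an unadjusted p under 0.05, and DESeq2 and limma-voom called no member either. The lack of calls over all genes did not hold in every setting. DESeq2 called 58 genes higher and 90 lower, and the single edgeR fit of all 27 libraries called 14 higher and 38 lower. The difference for Hspb1 was -1.32 ± 0.67 (SE, edgeR adjusted p = 0.49), for Hspa1b -1.90 ± 1.10 (SE, edgeR adjusted p = 0.56) and for Hspa1a -1.49 ± 1.23 (SE, edgeR adjusted p = 0.70). Without libraries 1 and 5 at 7 days, the difference for Hspb1 was -0.0099, and those for Hspa1a and Hspa1b turned to 0.67 and 0.16, none called. The standard errors are wide, and a lasting or fading response was not resolved for these 3 genes.

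In Tg ventricles at P7, 19 of 63 tested members rose, against a background of 14.9% of all genes called higher, and 5 fell, against 15.8% (30.7% in all). Summed cardiomyocyte markers were at 45922 to 51658 CPM in Tg ventricles, against 47493 to 48691 CPM in controls, and macrophage markers at 108 to 142 CPM, against 64.1 to 86.9 CPM. Fibroblast markers were at 7282 to 8579 CPM in Tg ventricles, against 5931 to 6983 CPM in controls, and 4 cycling markers at 143 to 171 CPM, against 223 to 240.5 CPM. The sum of 4 skeletal muscle markers, of which Ckm is also expressed in heart and 1 was at 0 in each group, was 796 to 849 CPM in Tg ventricles, against 1030.2 to 1132 CPM in controls. The last 4 sums did not overlap, and their part in the Tg results was not tested. Hspb8 was at 204, 182, 226 and 201 CPM in Tg ventricles, against 122, 119 and 128 CPM in controls, a log2 fold change of 0.73 ± 0.07 (SE, edgeR adjusted p = 7.3e-06). Dnajb5 was at 149, 128, 120.0 and 129 CPM, against 80.5, 79.0 and 79.7 CPM, a log2 fold change of 0.72 ± 0.07 (SE, edgeR adjusted p = 8.1e-06). Dnaja4, a DNAJA known from heart and skeletal muscle, was at 50.4, 44.3, 44.7 and 49.4 CPM, against 27.4, 32.9 and 26.9 CPM, a log2 fold change of 0.70 ± 0.07 (SE, edgeR adjusted p = 1.8e-05). For these 3 genes, no Tg library overlapped with a control, although 1581 exon bases of Dnaja4 lie opposite Wdr61.

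The HSP90 genes both rose in Tg ventricles. Hsp90aa1 was at 142, 138, 153 and 151 CPM, against 94.6, 112 and 105 CPM in controls, a log2 fold change of 0.50 ± 0.06 (SE, edgeR adjusted p = 8.8e-05), and Hsp90ab1 had 0.17 ± 0.04 (SE, edgeR adjusted p = 0.0093). Hspa8 was at 1201, 1157, 1127 and 1137 CPM in Tg ventricles, against 861, 905 and 878 CPM in controls, a log2 fold change of 0.39 ± 0.04 (SE, edgeR adjusted p = 2.8e-05). Each of these groups was separate. Hspb1 rose to 188, 176, 206 and 186 CPM in Tg ventricles, against 167, 154 and 161 CPM in controls (0.24 ± 0.06 SE, edgeR adjusted p = 0.0092), also without overlap.

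The inducible genes were low at P7. Hspa1a was at 1.23, 1.36, 1.39 and 1.34 CPM in Tg ventricles, against 1.23, 0.722 and 0.632 CPM in controls, a log2 fold change of 0.63 ± 0.24 (SE, edgeR adjusted p = 0.060) that was called without control library 1 (0.97) and with limma-voom (0.68). Hspa1b had 0.61 ± 0.17 (SE, edgeR adjusted p = 0.014), a call lost without control library 1 (0.54) or 3 (0.57). Hspa1l had 0.55 ± 0.18 (SE, edgeR adjusted p = 0.031), a call lost without Tg library 1 (0.54), 2 (0.53) or 3 (0.49), without control library 1 (0.47) or 3 (0.51), and in DESeq2 (0.56). All 19 immediate early genes tested were called higher in Tg ventricles, with a sum of 836 to 961 CPM, against 511 to 523 CPM in controls, and their part in these values was not tested.

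Hspb6 was at 631, 442, 504 and 559 CPM in Tg ventricles, against 439.8, 399 and 455 CPM in controls, overlapping, with a log2 fold change of 0.31 ± 0.09 (SE, edgeR adjusted p = 0.025). That call was lost without Tg library 1 (0.22) or 4 (0.29), without control library 1 (0.32) or 2 (0.26) and in DESeq2 (0.31). Hspb7 had 0.17 ± 0.06 (SE, edgeR adjusted p = 0.058), called without Tg library 2 (0.24) and with DESeq2 (0.18), and Hspb2 -0.15 ± 0.06 (SE, edgeR adjusted p = 0.092), called without Tg library 1 (-0.19) and under total count scaling (-0.17). Among endoplasmic reticulum members, Dnajc3 was at 38.8, 39.0, 40.1 and 40.0 CPM in Tg ventricles, against 31.1, 31.5 and 31.1 CPM in controls (0.34 ± 0.05 SE, edgeR adjusted p = 0.00011), Dnajb11 (ERdj3) had 0.40 ± 0.05 (SE, edgeR adjusted p = 0.00015) and Dnajc25 0.42 ± 0.09 (SE, edgeR adjusted p = 0.0028). Outside the members, 9 of 14 further chaperones of the endoplasmic reticulum were called higher and none lower.

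Of the 10 mitochondrial members none rose and 2 fell in Tg ventricles, with a median log2 fold change of -0.04, against -0.00 over all genes. The fallers were Dnajc28, at 8.85, 10.4, 10.2 and 9.54 CPM in Tg ventricles, against 13.2, 14.6 and 12.4 CPM in controls (-0.46 ± 0.09 SE, edgeR adjusted p = 0.0016), and Dnajc15 (-0.20 ± 0.06 SE, edgeR adjusted p = 0.020), whose call was lost without Tg library 4 (-0.18) or control library 3 (-0.16). Hspa12a and Hspa12b fell as well, with log2 fold changes of -0.26 ± 0.05 and -0.19 ± 0.04 (SE, edgeR adjusted p = 0.0018 and 0.0046). In a single fit of all 27 libraries, which shares its estimate of spread with the more variable KO groups, 5 members were called higher and 1 lower. Calls were fewer across all genes too, with 511 of 17261 higher and 462 lower in that fit, against 2371 and 2507 of 15893 in the main fit.

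The KO groups and the Tg group share no library, so their calls can be set side by side. Of 62 members tested in all 3 comparisons, 5 were called lower in KO-labelled ventricles at both times and higher in Tg ventricles, where 2.64% of all genes were: Dnaja2, Dnajb5, Dnajc25, Dnajc27 and Hspb6. Under total count scaling none of the 5 was called lower at both times: Dnajb5, Dnajc27 and Hspb6 were uncalled at both, Dnajc25 at 7 days and Dnaja2 at 14 days. They are 5 of the 18 that fell at both times and 5 of the 19 that rose in Tg ventricles. The opposite pattern, higher in KO-labelled and lower in Tg ventricles, was met by 0 members and by 2.13% of all genes. A further 4 rose in all 3 comparisons (Hsp90aa1, Hspa1b, Hspa1l and Hspb1; 4.17% of all genes) and 4 fell in all 3 (Dnajc15, Dnajc28, Hspa12a and Hspa12b; 4.54%). The KO calls of Hspb6 at 7 days and of Dnaja2 and Hspa12b at 14 days and the Tg calls of Hspb6, Hspa1b, Hspa1l and Dnajc15 depend on single libraries, as given above.

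Control ventricles of P1, P7 and day 60 give the course with age. Between P1 and P7, 6 of 64 tested members rose, against a background of 12.3% of all genes, and 8 fell, against 11.2% (23.5% in all). Between P7 and day 60, 38 of 64 rose, against 33.3%, and 6 fell, against 36.0% (69.3% in all), and with total count scaling 20 rose and 27 fell, as that scaling moved the median of all genes to -0.65. The P7 controls and the day-60 controls also serve in the Tg and KO comparisons, and nothing is drawn from likeness between them. What the day-60 controls received was not given, so its effect and that of age cannot be told apart. Cardiomyocyte marker sums were at 38594 to 45995 CPM at P1, 47493 to 48691 CPM at P7 and 70049 to 78543 CPM at day 60, and fibroblast sums at 2691 to 4294, 5931 to 6983 and 1236 to 1491 CPM. Endothelial sums were at 817 to 919 CPM at P1, 1126 to 1138 CPM at P7 and 645 to 762 CPM at day 60, and mitochondrially encoded genes took 10.3% to 13.03%, 15.3% to 15.9% and 26.0% to 29.6% of counts. Their part in the age results was not tested.

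Hspb8 rose in both steps. It was at 71.5, 73.3, 57.7 and 58.0 CPM at P1, 122, 119 and 128 CPM at P7 and 583, 610.1 and 775 CPM (lowest, median and highest of 7) at day 60, with log2 fold changes of 0.92 ± 0.10 (SE, edgeR adjusted p = 1.5e-05) to P7 and 2.40 ± 0.10 (SE, edgeR adjusted p = 9.5e-11) to day 60. Hspb6 was at 204, 199, 203 and 288 CPM at P1, 439.8, 399 and 455 CPM at P7 and 1413, 1630.3 and 1805 CPM at day 60, with 0.95 ± 0.13 (SE, edgeR adjusted p = 0.00011) and 1.89 ± 0.13 (SE, edgeR adjusted p = 1.0e-08). No 2 neighbouring ages overlapped for either gene.

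Hspb1 dipped at P7. It was at 280.4, 313, 308 and 319.7 CPM at P1, 167, 154 and 161 CPM at P7 and 245, 273 and 320.4 CPM at day 60, a log2 fold change of -0.92 ± 0.08 (SE, edgeR adjusted p = 2.0e-06) to P7 and 0.80 ± 0.07 (SE, edgeR adjusted p = 1.8e-07) to day 60. Hspb7 was at 2020.4, 2021, 1702 and 2264 CPM at P1 and 2027, 1949 and 2000.1 CPM at P7, not called, and at 2676, 3386 and 3698 CPM at day 60 (0.71 ± 0.10 SE, edgeR adjusted p = 1.8e-05). Hspb3 fell by day 60 (-0.48 ± 0.15 SE, edgeR adjusted p = 0.0098) and Hspb2 rose (0.46 ± 0.11 SE, edgeR adjusted p = 0.0016), although under total count scaling Hspb2 stood at -0.14 and was not called, as was Hspb7, at 0.11.

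All 10 mitochondrial members rose between P7 and day 60, with a median log2 fold change of 0.84, against -0.05 over all genes. Under total count scaling 6 were called higher and 1 lower, the last being Dnajc4 (-0.27), and Dnajc11 (-0.13), Hspd1 (-0.11) and Dnajc19 (-0.0709) changed direction without being called. Dnaja3 was at 78.3, 89.6, 95.4 and 83.7 CPM at P1, 87.3, 81.5 and 87.3 CPM at P7 and 181, 207 and 208 CPM at day 60, with 1.21 ± 0.08 (SE, edgeR adjusted p = 5.6e-09) for the last step. Hspa9 had 0.97 ± 0.08 (SE, edgeR adjusted p = 7.3e-08), Hspe1 0.93 ± 0.09 (SE, edgeR adjusted p = 5.0e-07) and Dnajc28 1.79 ± 0.20 (SE, edgeR adjusted p = 1.5e-06). Between P1 and P7 the mitochondrial members were called in both directions. Dnajc19 rose (0.41 ± 0.10 SE, edgeR adjusted p = 0.0061), as did Dnajc15 (0.22 ± 0.07 SE, edgeR adjusted p = 0.031), the latter not called under total count scaling (0.16). Dnajc30 fell (-0.33 ± 0.09 SE, edgeR adjusted p = 0.014). Hspd1 and Hspe1 fell as well (-0.28 ± 0.08 (SE, edgeR adjusted p = 0.025) and -0.38 ± 0.10 SE, edgeR adjusted p = 0.012). The Hspd1 call was lost without P7 control 1 (-0.25), 2 (-0.30) or 3 (-0.29) or P1 control 2 (-0.20), and that of Hspe1 without P7 control 1 (-0.32) or 2 (-0.38). P1 control library 2 was also the highest of its group in immediate early genes, at 1940 CPM in sum, where the lowest of the group was at 588 CPM.

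In the cytosol, Hsph1 was at 15.3, 18.04, 14.9 and 15.2 CPM at P1, 12.5, 13.1 and 15.3 CPM at P7 and 28.2, 34.8 and 46.1 CPM at day 60, with a log2 fold change of 1.46 ± 0.15 (SE, edgeR adjusted p = 6.2e-07) for the last step. Dnajb4, Dnajb5 and Dnaja2 rose by 1.27, 1.29 and 1.15 on that scale, with edgeR adjusted p of 6.5e-08, 2.1e-07 and 9.2e-09. Dnajb9 of the endoplasmic reticulum was at 21.1, 20.1 and 18.2 CPM at P7 and 42.5, 53.6 and 55.7 CPM at day 60 (1.38 ± 0.12 SE, edgeR adjusted p = 7.3e-08). Hspa2 and Hspa12a fell, with log2 fold changes of -0.63 ± 0.13 and -0.57 ± 0.08 (SE, edgeR adjusted p = 0.00048 and 2.4e-05). Hsp90aa1 had -0.14 ± 0.17 (SE, edgeR adjusted p = 0.48) and Hspa1a 0.60 ± 0.43 (SE, edgeR adjusted p = 0.22), neither past the test, although under total count scaling Hsp90aa1 was called at -0.75.

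Regulators and partners outside the members were read from lists. Hsf1, the factor that switches on heat shock genes, fell in KO-labelled ventricles, with log2 fold changes of -0.55 ± 0.10 at 7 days and -0.57 ± 0.10 at 14 days (SE, edgeR adjusted p = 0.0015 and 0.00085), and under total count scaling neither was called, at -0.12 and -0.20. Cryab, the small heat shock protein alpha-B-crystallin, was at 4928, 2421, 3309, 2866 and 4896 CPM in KO-labelled ventricles at 7 days, against 2053, 2178, 2003 and 2226 CPM in controls (0.79 ± 0.21 SE, edgeR adjusted p = 0.010), with libraries 1 and 5 highest. Of 17 tested HSP90 co-chaperones, 1 was called higher and 6 lower at 7 days, and 3 higher and 7 lower at 14 days. Fkbp4, which brings HSP90 to steroid receptors, fell, with -2.04 ± 0.14 at 7 days and -1.77 ± 0.10 at 14 days (SE, edgeR adjusted p = 4.2e-06 and 1.2e-06). Bag3, which links HSPB8 to HSP70, rose in Tg ventricles (0.44 ± 0.06 SE, edgeR adjusted p = 0.00010) and with age from P7 to day 60 (1.42 ± 0.08 SE, edgeR adjusted p = 1.1e-09) and was called lower in KO-labelled ventricles at 14 days (-0.47 ± 0.12 SE, edgeR adjusted p = 0.011), a call lost without control library 5 (-0.40) and under total count scaling (-0.09). All 8 subunits of the CCT chaperonin fell between P1 and P7, with a median log2 fold change of -0.37.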

How the data were processed

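The deposited table holds whole-number gene counts of 55487 Ensembl genes in 27 mouse ventricle libraries, and 0 columns belonged to no sample. RNA was extracted with TRIzol and RNeasy and sequenced on the DNBseq platform, per the labels' protocols. STAR, featureCounts, DESeq2, Salmon and the build GRCm38 (mm10) are named in the submitters' processing notes, while their versions and the strand setting are not given in the sources used here. Symbols and exon lengths came from GENCODE M21. Counts were tested as deposited with edgeR 4.0.16 (filterByExpr, TMM, quasi-likelihood F test) in R 4.3.3, each comparison on its own libraries, with Benjamini-Hochberg adjustment over all genes tested. The script was tested on simulated data. Levels are CPM after TMM over the 27 libraries, and TPM values use merged exon length.

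The members and lists were chosen with earlier results of these data known. Values were drawn from the small muscle HSPB genes, the core HSP70, HSP90, HSP60 and mitochondrial members, and the 8 largest called rises and falls of each comparison with a mean of 5 CPM or more, and up to 4 genes of other lists. Not every such gene was given a value in every comparison, so the genes described are not the full set of largest changes. Genes of other members and lists were added after their values were seen. Replicate numbers were not taken to pair libraries, since the correlations of same-numbered deviations ran from -0.26 to 0.06. All 40 pairs of libraries within groups differed beyond sampling noise, with chi-square per degree of freedom from 6.34 to 147. Alternatives were DESeq2 1.42.0, its size factors in edgeR, limma-voom 3.58.1, total count scaling, no mitochondrially encoded genes, no low-count filter, all libraries in a single fit, a replicate block, each library left out in turn, and the 7-day KO-labelled libraries 1 and 5 left out together. Promoters were RefSeq windows on GRCm38.p6.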

Additional observations from a re-analysis of the deposited data

Results flagged for a closer look

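Among 160 sets of libraries examined for the members described, 13 held 1 library apart from the others of its group by Dixon's criterion at the 95% level, where chance gives about 1 in 20. In KO-labelled ventricles at 7 days, Hspa1l was low in library 3, at 3.05 CPM, against 5.46 to 5.99 CPM in the others. At 14 days KO-labelled library 6 was high in Hspb1, at 1094 CPM, against 581 to 635 CPM, and in Hspb7, at 7455 CPM, against 5474 to 5796 CPM. Library 8 of that group was high in Dnajb1, at 28.2 CPM, against 21.9 to 23.0 CPM, and low in Hspb3, at 9.48 CPM, against 12.5 to 12.9 CPM. Among 7-day controls, library 4 was low in Hspa1b, at 1.36 CPM, against 2.55 to 2.79 CPM, and high in Hspa4, at 185 CPM, against 157 to 160.0 CPM, and library 3 was low in Hspb1, at 245 CPM, against 269 to 274 CPM. Tg library 1 was high in Hspb2, at 29.4 CPM, against 25.8 to 26.3 CPM. Of the P1 controls, library 2 was high in Dnajb4 (62.1 CPM, against 41.5 to 44.7 CPM), Hspd1 (249 CPM, against 198 to 203 CPM) and Hsph1 (18.04 CPM, against 14.9 to 15.3 CPM), and library 4 in Hspb6 (288 CPM, against 199 to 204 CPM).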

How the results depend on the processing

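The calls of all genes under total count scaling in the KO comparisons are given above, and the members' share called higher was close to theirs. Total count scaling moved the counts of members to 33 higher and 9 lower in KO-labelled ventricles at 7 days, 30 and 10 at 14 days, 13 lower in P7 against P1 and 20 higher and 27 lower in day-60 against P7 controls. It turned the direction of Dnaja2 at 14 days (0.0054) and, between P7 and day 60, of Dnajb6 (-0.0016), Dnajc19 (-0.0709), Hsp90ab1 (-0.0155), Hspa1b (-0.0791), Hspa4 (-0.16), Hspb2 (-0.14), Hspd1 (-0.11), Dnajc11 (-0.13) and Dnajc4 (-0.27, called lower). Called members given no value above that it turned were Dnajc7 at 7 days (0.20, called higher), Dnajb12 (0.0361) and Dnajc16 (0.0241) at 14 days, and, from P7 to day 60, Dnajb14 (-0.34), Dnajc1 (-0.18) and Dnajc8 (-0.42), all called lower, and Dnajc16 (-0.0389) and Dnajc2 (-0.0337), besides Dnajc27 (-0.0192). Members not called on the TMM scale turned too. Among them were Dnaja1 at 7 (0.41) and 14 days (0.35), Hspa4 at 14 days (0.29) and Hspa14 at 7 days (0.41), all called higher. From P7 to day 60 they included Dnajc10 (-0.60) and Dnajc18 (-0.48), both called lower, and Hspa1b (-0.0791), not called. A single fit of all libraries gave 5 higher and 1 lower in Tg ventricles and 5 lower in P7 against P1. In Tg ventricles it called 511 of all 17261 genes higher and 462 lower. Without the 7-day KO-labelled libraries 1 and 5, the 14-day minus 7-day difference turned for Hspa1a (0.67) and Hspa1b (0.16), while 15 members were higher and 24 lower at 7 days. The causes were not tested. Leaving out 1 library gave 13 to 16 higher and 17 to 21 lower at 7 days, 11 to 17 and 20 to 22 at 14 days, 0 and 0 for their difference, 17 to 19 and 4 to 7 in Tg, 5 to 7 and 3 to 13 in P7 against P1, and 37 to 38 and 5 to 9 in day-60 against P7. Among all genes, 3618 to 3994 were then called higher and 3065 to 3616 lower at 7 days. At 14 days 2453 to 3596 were called higher and 2679 to 3660 lower. The count lower at P7 against P1 was 5, 3 and 4 without P7 controls 1, 2 and 3 and 13 without P1 control 3.

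Replicate numbers did not pair the libraries. A replicate block, which keeps fewer libraries, gave 3 higher and 1 lower in P7 against P1, and those libraries without the block gave 5 lower. The block gave 11 higher and 19 lower members at 7 days, 14 and 18 at 14 days, 19 and 4 in Tg and 37 and 7 in day-60 against P7 controls. With it 3412 of all 14898 genes were called higher and 3177 lower at 7 days. At 14 days 3013 of 14860 were called higher and 3150 lower. Over 2907 refits of 165 fold changes, each of 1 gene in 1 comparison, 2715 left the call in place, 164 lost it, 16 gained it and 12 changed sign. Groups of 3 to 5 libraries limit the precision, and low members such as Hspa1l rest on few counts.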
